A study of Mus musculus with 2 samples.

Results

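The genes described here are those of the interferon response, the Parp family and antigen presentation, in epithelium of the fetal mouse lung. They were taken as every gene with a probe set of its own whose symbol in the array annotation begins with one of a fixed set of names: the interferon receptors, Stat and Irf factors, Toll-like receptors (Tlr), the interferon-induced families Ifi, Ifih1, Ifit, Ifitm, Isg, Oas, Gbp, Usp18 and Bst2, the Parp genes, and the antigen presentation genes H2, B2m, Tap1, Tap2, Tapbp, Psmb8, Psmb9 and Cd74. The rule found 120 of 18193 genes, read by 200 probe sets. A further 26 probe sets that name several genes, of which 1 or more match, were not used. Isg15 had no single-gene probe set used here. Among the 120 are 5 genes that match by the start of their symbol only and belong to other processes (Irf2bp1, Irf2bp2, Irf2bpl, Isg20l2 and H2-Ke6).

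There were 2 arrays, 1 per condition. One read lung epithelium of ICR mouse fetuses at embryonic day 11, cultured in Matrigel for 4 days with FGF10 and CHIR99021, then broken into pieces, embedded again and kept for 2 days with FGF10 and CHIR99021. The other read epithelium of the same strain, age and first culture, kept for the last 2 days with FGF10 and without CHIR99021. CHIR99021 inhibits glycogen synthase kinase 3 and so activates canonical Wnt signalling, and both cultures had been exposed to it. With 1 array per condition no spread between cultures could be measured, no test was possible and no p-value is given.

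Interferons are secreted in response to viral nucleic acid and act through paired receptor chains and Janus kinases. Type I interferon activates a complex that holds Stat2 and Irf9 and binds a promoter motif called the interferon-stimulated response element. The response to interferon gamma runs through a second motif, the gamma-activated site. The induced genes include antiviral enzymes and GTPases, several mono-ADP-ribosyltransferases of the Parp family, and the machinery that loads peptides on MHC class I molecules. Lung epithelium is a barrier tissue that carries these receptors and sensors itself, and many of the genes also have a low level without infection.

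The unit is the MAS5 signal of a probe set on a linear scale. A background floor was set on each array from 80 probe sets of olfactory and vomeronasal receptor genes, at 12.7 with CHIR99021 and 19.2 without it. A gene was counted as measured if it was above the floor on 1 array or both, and as higher or lower if it differed at least 2-fold, after values under the floor were raised to it. A fold with 1 array under its floor is therefore a bound and is given as "at least". Of 7 epithelial markers 1 was higher, 3 were lower and 3 were within 2-fold. Epcam had 3743 with CHIR99021 and 3846 without, and Cdh1 3574 with CHIR99021 and 6414 without. The surfactant gene Sftpc had 8500 with CHIR99021 and 8808 without, and Krt8 and Krt18 were 2.45-fold and 2.38-fold lower with CHIR99021. Sox9, a factor of the growing lung tips, had 771 with CHIR99021 and 70.1 without, a log2 ratio of 3.46, while Nkx2-1, the factor that marks lung epithelium, was below the floor with CHIR99021 and at 52.0 without. Of 10 leukocyte markers 4 were above the floor, with a summed signal over the 10 of 153 with CHIR99021 and 230.4 without, and Ptprc, the leukocyte common antigen, was below the floor on both arrays, as were Itgam, Cd3e and Cd79a. Endothelial markers were above the floor in 1 of 5, with a summed signal of 45.7 with CHIR99021 and 64.8 without, and mesenchymal ones in 3 of 7, at 169 with CHIR99021 and 219 without. In such bulk samples fewer cells of a type and less RNA per cell cannot be told apart. The array with CHIR99021 had the larger 3' to 5' signal ratio, 3.18 against 1.29 without it for beta-actin and 1.62 against 0.737 without it for Gapdh. The median log2 ratio over all 12917 measured genes was -0.42, so most genes lay below 0 on this scale. The part of RNA quality, scaling or other cells in the values below was not tested.

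Of the 120 genes, 86 were measured, 64 of them on both arrays. Among the 86, 27 were at least 2-fold lower with CHIR99021 (31.4%) and 0 were at least 2-fold higher. Over all measured genes 18.4% were lower and 1.90% were higher by the same rule. Of the 27, 10 were above the floor on the array without CHIR99021 only, where they were high, and 7 of the 86 were above it with CHIR99021 only and could show no direction. Among the 64 above both floors 17 were lower, 26.6% against 17.3% of all genes. The median log2 ratio of the 86 was -0.68, against -0.42 over all genes, and that of the 64 was -0.59, against -0.40. Of the 64, 49 had a log2 ratio below 0 (76.6%), about the same share as all genes above both floors (76.4%). The share of measured genes that was lower exceeded that of all genes under each of 5 scalings, but its size depended on them. After median centring 10 were lower and 3 higher, against 7.44% and 5.91% of all genes. After loess 10 were lower and 4 higher, against 7.29% and 6.03%, and after quantile normalization 9 and 5, against 6.33% and 7.27%. With the hybridization controls as the scale 15 were lower (17.4% against 13.7%) and 1 higher (1.16% against 2.74%). At a threshold of 1.5-fold on the authors' scale 47 were lower and 3 higher, against 38.7% and 5.05% of all genes, and at 3-fold 8 were lower and 0 higher, against 6.29% and 0.627%. With no floor 32 were lower and 3 higher, against 20.6% and 3.71%. Of the 27 lower genes, 9 were lower by at least 2-fold under all 5 scalings: Ifngr2, Ifit3, Gbp6, Ifi35, Tlr4, Parp3, Parp9, Parp12 and Tap2. The other 18 passed 2-fold on the authors' scale and fell short of it under 1 or more of the others. Of the 9, Ifit3, Gbp6 and Tlr4 are bounds, above the floor on the array without CHIR99021 only. Parp3 was read only by probe sets of the _x_at and _s_at kinds, which may read more than 1 gene. The share of all genes past 2-fold under all 5 scalings is not given here, so the 9 have no background share.

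**Figure D1:**
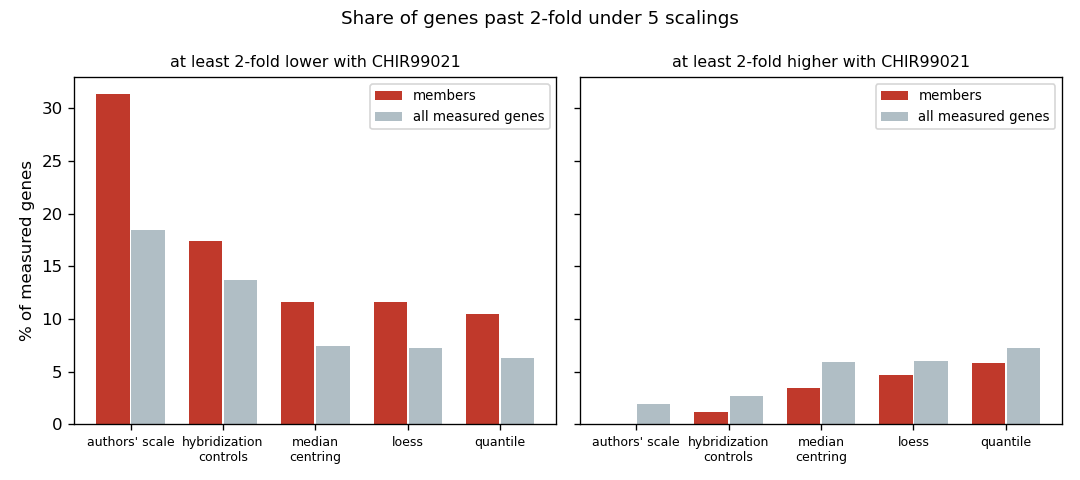
Share of measured genes (%) at least 2-fold lower (left panel) or higher (right panel) with CHIR99021 under 5 scalings, for the 86 measured interferon, Parp and antigen presentation genes (red) and all measured genes (grey). The red bar is the taller one in every pair of the left panel (31.4% against 18.4% on the authors' scale) and the shorter one in every pair of the right panel.

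The lower genes were mostly ones of modest signal. Where the mean of both arrays was under 50, 17 of 46 members were lower (37.0%, against 21.7% of all genes in that band). Between 50 and 200 there were 8 of 21 (38.1% against 22.6%), and at 200 or more there were 2 of 19 (10.5% against 14.6%). After loess the shares were 8.70% against 5.55%, 19.0% against 9.56% and 10.5% against 6.98% in the same bands.

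**Figure D2:**
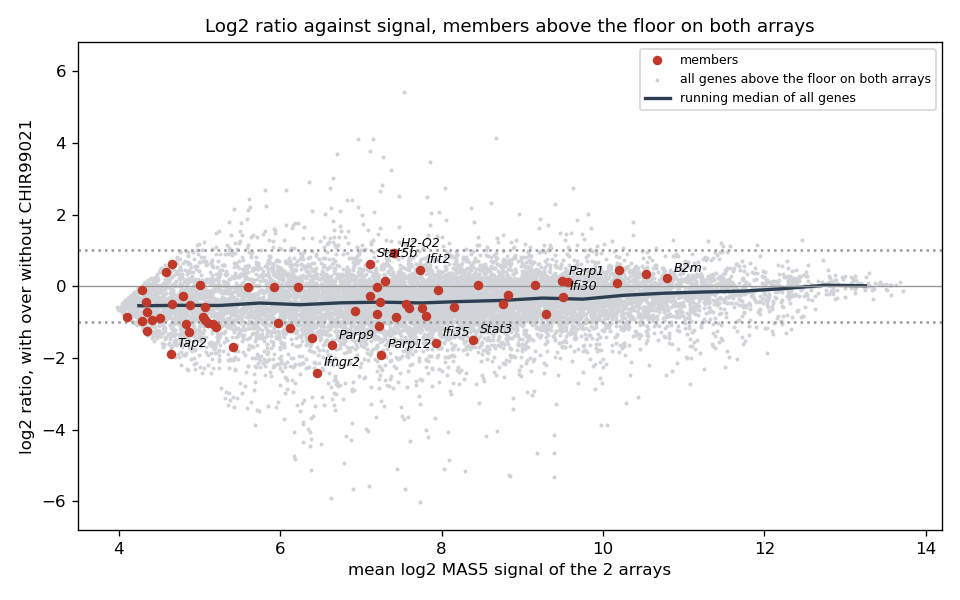
Log2 ratio (with over without CHIR99021) against the mean log2 MAS5 signal of both arrays, for the 64 members above the floor on both (red), all genes above both floors (grey) and the running median of all genes (line); dotted lines mark 2-fold. Ifngr2, Parp12 and Tap2 lie lowest among the members, and no member reaches the upper dotted line.

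Among the interferon receptors, Ifngr2, the signalling chain of the interferon gamma receptor, had 38.1 with CHIR99021 and 204 without, 5.35-fold lower. Its other probe set had 54.4 with CHIR99021 and 101 without, a log2 ratio of -0.90, which is short of 2-fold. The first log2 ratio, -2.42, was the lowest among members above both floors, and lay between -1.76 and -2.25 under the other scalings. The ligand-binding chain Ifngr1 had 238 with CHIR99021 and 257 without. The type I interferon receptor chains were also within 2-fold: Ifnar1 had 168 with CHIR99021 and 299 without. Ifnar2 had 126 with CHIR99021 and 153 without, with its 3 probe sets above both floors disagreeing in sign.

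Of 6 Stat genes 5 were measured and 3 were lower, where 18.4% of all genes were lower. After median centring, after loess and with the hybridization controls 1 of the 5 was lower (Stat3), and after quantile normalization 0. Of all genes 7.44%, 7.29%, 13.7% and 6.33% were lower under these scalings, in the same order. Stat3, which transmits signals of the interleukin 6 family, had 199.8 with CHIR99021 and 564 without, 2.82-fold lower. Its 3 other probe sets above both floors had log2 ratios between -0.89 and -0.21, short of 2-fold. Stat6, the factor of interleukin 4 and 13, had 102.0 with CHIR99021 and 221 without, 2.16-fold lower, and its second probe set was below the floor with CHIR99021 and at 90.6 without, at least 7.12-fold lower. Stat2, the partner of Irf9 in type I interferon signalling, was below the floor with CHIR99021 and at 27.4 without, at least 2.16-fold lower. The second Stat2 probe set was below the floor with CHIR99021 and at 21.9 without, at least 1.72-fold lower, a bound short of 2-fold. Stat5b, a factor of growth hormone and cytokine receptors, had 172 with CHIR99021 and 112 without, under 2-fold. The log2 ratio was 0.62 on the authors' scale. With median centring it became 1.10, and with loess 1.16. Its second probe set had 19.5 with CHIR99021 and 38.6 without. Stat5a had 24.5 with CHIR99021 and 35.3 without. Stat4 was not measured.

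No Irf factor reached 2-fold by the probe set that read it. All 6 measured ones had log2 ratios below 0, from -0.71 to -0.01 and a median of -0.60, against -0.42 for all genes. Of all genes above both floors 76.4% lay below 0 as well. After median centring, loess or quantile normalization 4 of the 6 were below 0, against 44.6%, 46.5% and 41.5% of all genes above both floors. The medians of the 6 were then -0.12, -0.11 and -0.02, against 0.05, 0.04 and 0.12 for all genes. Irf1, the factor that interferon gamma induces first, had 176 with CHIR99021 and 268 without. Irf9, the DNA-binding partner of Stat2, had 96.1 with CHIR99021 and 154 without, and Irf2, a relative that can antagonise Irf1, had 233 with CHIR99021 and 350 without. Irf3, which is activated by nucleic acid sensors, had 416 with CHIR99021 and 495 without, but its dimmer probe sets had log2 ratios of -0.79, -1.02 and -1.46, and so 2 of them passed 2-fold. Irf7, the amplifier of the type I response, was near the floor at 15.9 with CHIR99021 and 26.0 without. Irf5 had 48.3 with CHIR99021 and 48.6 without. Irf4 and Irf8, factors of lymphoid and myeloid cells, were below the floor on both arrays.

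Of 11 Toll-like receptor genes 5 were measured, and 3 were lower, where 18.4% of all genes were lower. Only 1 of the 5, Tlr4, was lower under each of the 4 other scalings, where 6.33% to 13.7% of all genes were lower. Tlr4, the receptor of bacterial lipopolysaccharide, was below the floor with CHIR99021 and at 55.9 without, at least 4.40-fold lower. A second probe set of Tlr4 was also below the floor with CHIR99021 and at 63.5 without, at least 4.99-fold lower. Tlr3, the endosomal receptor of double-stranded RNA, had 44.1 with CHIR99021 and 89.6 without (2.03-fold lower), and its other probe set had 17.9 with CHIR99021 and 52.9 without (2.96-fold lower). Tlr5, the flagellin receptor, had 19.8 with CHIR99021 and 41.3 without, 2.08-fold lower. Tlr2, a receptor of bacterial lipoproteins, had 25.5 with CHIR99021 and 30.5 without, and its partner Tlr6 had 12.8 with CHIR99021 and 23.1 without. Tlr1, Tlr7, Tlr8, Tlr9, Tlr12 and Tlr13 were below the floor on both arrays.

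**Figure D3:**
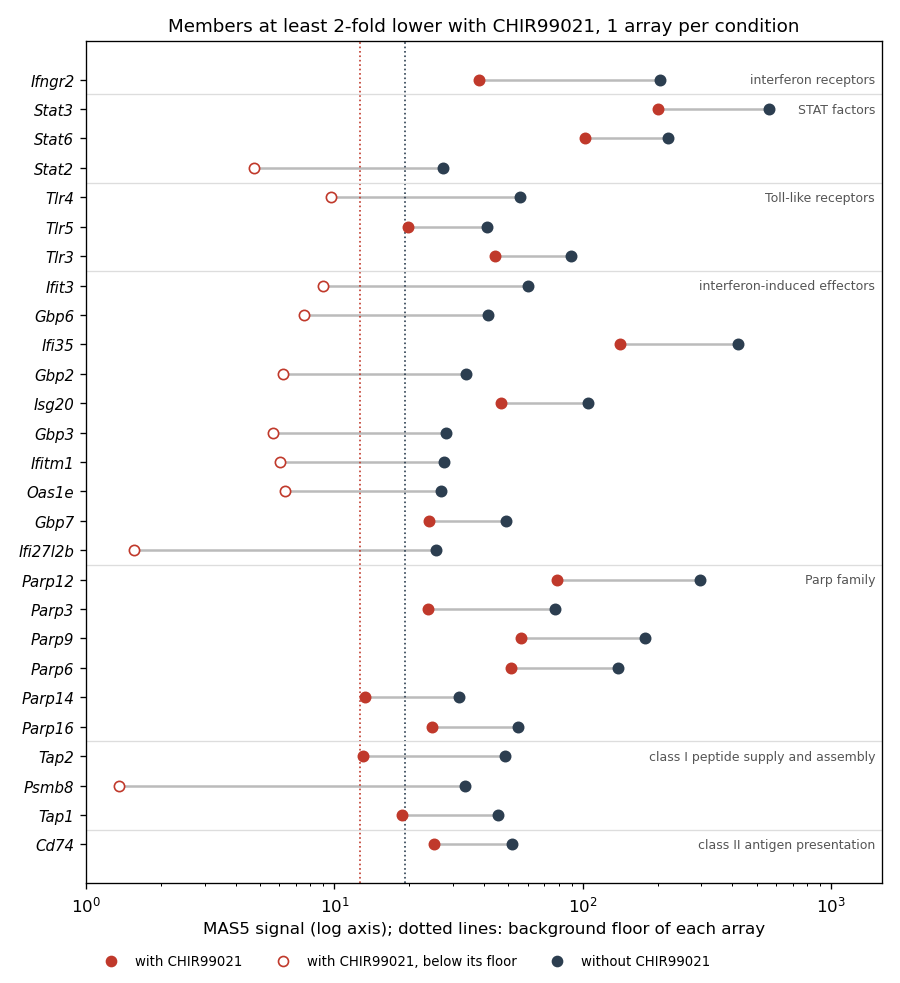
MAS5 signal (log axis) of the 27 members at least 2-fold lower with CHIR99021, by role. Each row joins the array with CHIR99021 (red, open where below its floor of 12.7) to the array without it (dark), and the 10 open points mark folds that are bounds.

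The interferon-induced effector genes were the largest group, with 44 genes, of which 29 were measured. Of these 10 were lower and 0 higher, a share of 34.5% against 18.4% of all genes, and the median log2 ratio was -0.87. Of the 10, 7 were above the floor without CHIR99021 only, and among the 14 effectors above both floors 3 were lower, 21.4% against 17.3% of all genes. After median centring 3 of the 29 were lower, against 7.44% of all genes. Ifit3, an RNA-binding antiviral protein, was below the floor with CHIR99021 and at 60.4 without, at least 4.74-fold lower. Its neighbour and relative Ifit2 was within 2-fold: it had 248 with CHIR99021 and 181 without, a log2 ratio of 0.45. Ifi35, a partner of the Stat-interacting protein Nmi, had 141 with CHIR99021 and 421 without, 2.99-fold lower. Both further probe sets of Ifi35 passed 2-fold as well, at 2.41-fold and 2.39-fold. Isg20, an exonuclease that degrades viral RNA, had 46.8 with CHIR99021 and 104 without, 2.23-fold lower.

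The guanylate-binding proteins are GTPases that attack vacuoles of intracellular pathogens. Of 6 Gbp genes 4 were measured and all 4 were lower, where 18.4% of all genes were lower. After median centring only Gbp6 passed 2-fold, and likewise after loess and quantile normalization, where 7.44%, 7.29% and 6.33% of all genes were lower. Gbp6 was below the floor with CHIR99021 and at 41.6 without, at least 3.27-fold lower. Gbp2 was below the floor with CHIR99021 and at 33.8 without, at least 2.65-fold lower. Gbp3 was likewise below the floor with CHIR99021 and at 28.2 without, at least 2.21-fold lower. Gbp7 had 24.0 with CHIR99021 and 49.2 without, 2.05-fold lower. Gbp2b and Gbp8 were not measured. For 3 of the 4 the signal with CHIR99021 was below the floor. The signals lie close to the floor, and with the floor at the 99th percentile of the receptor probe sets Gbp2 and Gbp3 had log2 ratios of -0.95 and -0.68.

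Ifitm1, a membrane protein that blocks virus entry, was below the floor with CHIR99021 and at 27.5 without, at least 2.16-fold lower. Oas1e, of the oligoadenylate synthetase family, was below it with CHIR99021 and at 26.8 without, at least 2.11-fold lower. Ifi27l2b was below it with CHIR99021 and at 25.7 without, at least 2.02-fold lower. All 3 stand on a single array near its floor. Ifitm2, a relative of Ifitm1, had 355 with CHIR99021 and 347 without. Ifitm3 had 24.6 with CHIR99021 and 44.3 without. Ifih1, a cytosolic sensor of double-stranded RNA, had 128 with CHIR99021 and 234 without, under 2-fold. Usp18, which removes the ubiquitin-like Isg15 from proteins and dampens the type I receptor, had 27.5 with CHIR99021 and 41.1 without. Bst2, which tethers budding virus particles, had 74.5 with CHIR99021 and 75.3 without. For 6 effectors (Ifitm7, Ifitm10, Ifi203, Oas1a, Oas1f and Oas3) only the array with CHIR99021 was above its floor, and since the other array's floor was higher, no direction can be given. The remaining 15 effectors, Ifit1, Ifi44l, Ifi47 and Oasl2 among them, were below the floor on both arrays. Many Gbp, Oas, Ifi, Ifitm and H2 genes have near-identical copies, so their probe sets may read more than 1 gene.

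**Figure D4:**
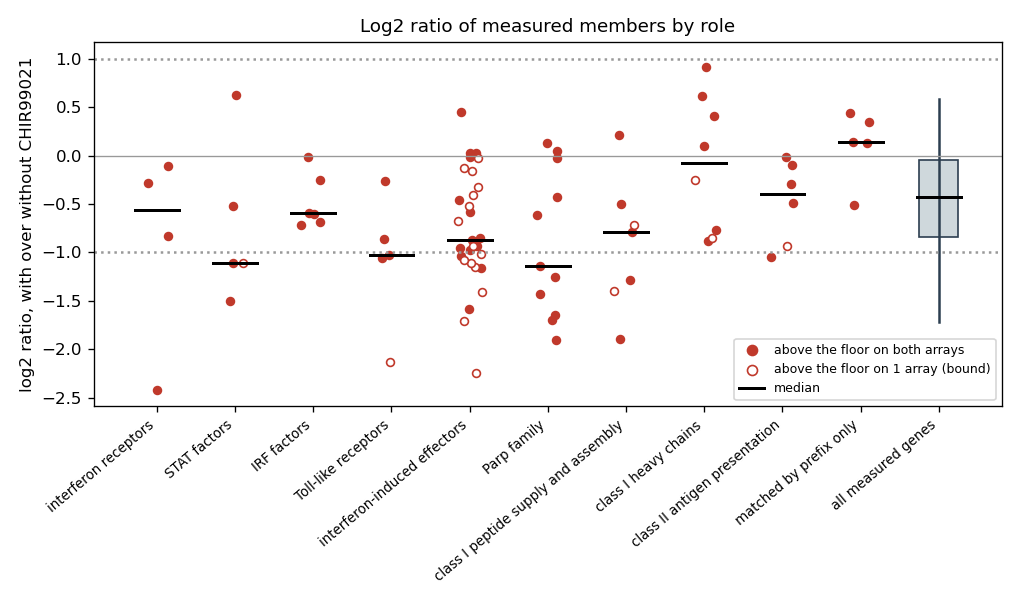
Log2 ratio (with over without CHIR99021) of the 86 measured members by role; open points were above the floor on 1 array only (7 of them have no direction), black bars are medians and dotted lines mark 2-fold. At the right is the distribution of all measured genes (box, quartiles; line, 5th to 95th percentile). The Parp, Stat and Toll-like receptor medians lie below -1, and the class I heavy chain median lies near 0.

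To show what the promoters of these genes hold, the 250 bases before each RefSeq start (GRCm38.p6) were searched on both strands for the core of the interferon-stimulated response element, GAAA and GAAA with any 2 bases between them (TTTC and TTTC on the other strand), and for the gamma-activated site, TTCNNNGAA, which reads the same on both strands. Promoters were matched for 96 of the 120 genes. The response element core was found in 23 of them (24.0%), against 3.46% of all 27025 genes of the table, and the gamma-activated site in 18 (18.8%), against 8.13%. Either motif was present in 7 of 19 lower genes (36.8%), 18 of 53 genes within 2-fold (34.0%) and 11 of 24 genes not measured (45.8%). The response element core alone was in 5 of the 19 (26.3%), 12 of the 53 (22.6%) and 6 of the 24. A match is only a description of letters. The sequences below are 3 promoters with the response element core whose genes were lower (Ifit3, Gbp2 and Stat2) and 3 with it whose genes were within 2-fold (B2m, Bst2 and Parp4), each given 5′ to 3′ on the strand of the gene, with matches in capitals.
Ifit3 (chr19:34583279-34583528, plus strand): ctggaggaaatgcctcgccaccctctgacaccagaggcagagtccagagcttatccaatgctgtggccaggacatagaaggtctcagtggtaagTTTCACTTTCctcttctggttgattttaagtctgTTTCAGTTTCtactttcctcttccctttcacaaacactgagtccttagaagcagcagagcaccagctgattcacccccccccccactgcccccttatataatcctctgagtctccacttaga
Gbp2 (chr3:142620413-142620662, plus strand): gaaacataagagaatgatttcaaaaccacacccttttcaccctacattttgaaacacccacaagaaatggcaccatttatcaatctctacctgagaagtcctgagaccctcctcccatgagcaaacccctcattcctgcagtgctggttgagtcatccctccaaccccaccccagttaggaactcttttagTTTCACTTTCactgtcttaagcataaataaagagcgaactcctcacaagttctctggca
Stat2 (chr10:128270248-128270497, plus strand): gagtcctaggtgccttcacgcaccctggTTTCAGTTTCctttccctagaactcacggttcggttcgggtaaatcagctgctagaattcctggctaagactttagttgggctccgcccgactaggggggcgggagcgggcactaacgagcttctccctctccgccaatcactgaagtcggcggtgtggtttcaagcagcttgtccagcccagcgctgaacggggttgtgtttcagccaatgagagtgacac
B2m (chr2:122147437-122147686, plus strand): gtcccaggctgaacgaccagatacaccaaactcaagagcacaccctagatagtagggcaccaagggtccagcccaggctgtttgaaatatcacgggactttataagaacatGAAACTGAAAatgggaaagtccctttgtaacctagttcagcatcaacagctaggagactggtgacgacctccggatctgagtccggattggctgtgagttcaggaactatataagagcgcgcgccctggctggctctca
Bst2 (chr8:71537473-71537722, minus strand): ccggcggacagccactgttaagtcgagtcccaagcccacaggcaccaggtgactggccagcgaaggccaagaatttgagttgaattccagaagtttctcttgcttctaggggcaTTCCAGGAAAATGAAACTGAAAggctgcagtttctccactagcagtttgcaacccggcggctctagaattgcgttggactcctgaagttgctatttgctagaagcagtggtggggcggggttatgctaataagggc
Parp4 (chr14:56575369-56575618, plus strand): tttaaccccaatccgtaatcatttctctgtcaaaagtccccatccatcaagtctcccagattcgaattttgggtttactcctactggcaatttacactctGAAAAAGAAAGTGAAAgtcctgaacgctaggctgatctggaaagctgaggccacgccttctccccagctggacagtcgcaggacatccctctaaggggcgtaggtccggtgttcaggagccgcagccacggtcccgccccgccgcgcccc
Ifit3 holds 2 separate cores, Gbp2 and Stat2 hold 1 each, and B2m holds 1. Bst2 holds 2 overlapping cores, the first of which also overlaps a gamma-activated site, so its capitals run together, and Parp4 holds 2 that overlap. The 2 cores of Ifit3 stand with a gene at least 4.74-fold lower, and those of Bst2 and Parp4 with log2 ratios of -0.02 and -0.02.

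All 11 Parp genes were measured on both arrays, and 6 were at least 2-fold lower with CHIR99021, 54.5% against 17.3% of all genes above the floor on both arrays. Their median log2 ratio was -1.14. After median centring, loess or quantile normalization 3 of the 11 were lower, against 7.44%, 7.29% and 6.33% of all measured genes. Parp12, a mono-ADP-ribosyltransferase with antiviral activity, had 78.8 with CHIR99021 and 296 without, 3.76-fold lower. Parp9, which works with the ubiquitin ligase Dtx3l, had 56.6 with CHIR99021 and 178 without, 3.14-fold lower. Parp14, a macrodomain enzyme linked to Stat6 signalling, had 13.2 with CHIR99021, just above the floor, and 31.7 without, 2.39-fold lower. A second Parp14 probe set was below the floor on both arrays. Dtx3l itself, which is no Parp, had 101 with CHIR99021 and 152 without, under 2-fold.

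Of the other Parp genes, 3 were lower. Parp3, which acts in the repair of DNA breaks, had 23.8 with CHIR99021 and 76.9 without, 3.24-fold lower. Its other 2 probe sets were 5.80-fold and 5.65-fold lower. All of them are of the _x_at or _s_at kind, so Parp3 has no value when these are left out. Parp6, a mono-ADP-ribosyltransferase studied mainly in neurons, had 51.2 with CHIR99021 and 138 without, 2.70-fold lower. The other Parp6 probe sets were below the floor on both arrays. Parp16, an enzyme of the endoplasmic reticulum membrane, had 24.8 with CHIR99021 and 54.6 without, 2.20-fold lower. The main DNA damage enzymes were within 2-fold: Parp1, the sensor of DNA strand breaks, had 757 with CHIR99021 and 690.4 without, and Parp2 had 581 with CHIR99021 and 564 without. The 4 probe sets of Parp1 were divided, with log2 ratios from -0.99 to 0.49. Parp4, the vault particle Parp, had 146 with CHIR99021 and 148 without, Parp8 130.0 with CHIR99021 and 175 without, and Parp11 157 with CHIR99021 and 239 without.

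The peptide supply and assembly genes of MHC class I were measured in full, 7 of 7, and 3 were lower, where 18.4% of all genes were lower. After median centring, loess or quantile normalization 1 of the 7, Tap2, was lower, against 7.44%, 7.29% and 6.33% of all genes. Tap2, which with Tap1 carries peptides into the endoplasmic reticulum, had 13.0 with CHIR99021, just above the floor, and 48.4 without, 3.71-fold lower. Tap1 had 18.7 with CHIR99021 and 45.5 without, 2.43-fold lower, while its other probe sets were below the floor on both arrays. Psmb8, a catalytic subunit of the immunoproteasome, was below the floor with CHIR99021 and at 33.4 without, at least 2.63-fold lower. A second Psmb8 probe set was below the floor on both arrays. Psmb9, a further such subunit, was below the floor with CHIR99021 and at 20.9 without, at least 1.65-fold lower. Tapbp, the tapasin that bridges Tap and class I, had 363 with CHIR99021 and 514 without, with its second probe set at 2.29-fold lower, and Tapbpl, a related peptide editor, had 112 with CHIR99021 and 193 without. B2m, the light chain of all class I molecules, had 1916 with CHIR99021 and 1647 without, and 1321 with CHIR99021 and 1715 without by its other probe set, so its direction is not settled.

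Among the class I heavy chains, of 13 genes 8 were measured, 0 were lower and 0 higher, and their median log2 ratio was -0.08. Over all measured genes 18.4% were lower, 1.90% were higher and the median was -0.42. For the 6 heavy chains above both floors the median was 0.25, against -0.40 for all such genes. The counts and the median depended on the scaling. After median centring 2 of the 8 were higher, against 5.91% of all genes, and 3 of the 8 after loess (against 6.03%) and after quantile normalization (against 7.27%), where the medians of the 8 were 0.40, 0.37 and 0.45. With the hybridization controls 1 of the 8 was higher, against 2.74% of all genes. The difference from the peptide supply genes was not tested. H2-K1, a classical heavy chain, had 1199 with CHIR99021 and 1121 without, while its other probe sets had log2 ratios down to -0.94. H2-D1, the other classical chain, had 482 with CHIR99021 and 824 without, a log2 ratio of -0.77, with 5 probe sets above both floors between -0.94 and 0.04. The nonclassical H2-Q2 had 234 with CHIR99021 and 124 without, the highest log2 ratio among the members at 0.92. It passed 2-fold higher under all 4 other scalings, at log2 ratios of 1.39 after median centring, 1.44 after loess and 1.08 scaled on the hybridization controls. H2-Bl had 31.5 with CHIR99021 and 20.5 without, with log2 ratios of 1.10 after median centring and 1.21 after loess. H2-Q10 had 27.7 with CHIR99021 and 20.8 without, and passed 2-fold higher after loess and quantile normalization (log2 ratio 1.09 after the second). H2-T3 was above its floor with CHIR99021 only by the probe set that read it, at 16.1, so it has no direction there, while a second probe set was below the floor with CHIR99021 and at 26.2 without, at least 2.06-fold lower. H2-M3, which presents formylated bacterial peptides, had 16.8 with CHIR99021 and 30.9 without. H2-M10.1 was below the floor with CHIR99021 and at 23.0 without, at least 1.81-fold lower. The remaining 5 heavy chain genes were not measured.

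Of 11 class II genes 6 were measured and 1 was lower (16.7%, against 18.4% of all genes). Under the 4 other scalings 0 were lower, where 6.33% to 13.7% of all genes were. Cd74, the invariant chain that escorts class II molecules, had 25.1 with CHIR99021 and 51.8 without, 2.06-fold lower. H2-Aa, H2-Ab1, H2-Ea, H2-Oa and H2-Ob were below the floor on both arrays, and H2-Eb1 was below it with CHIR99021 and at 24.3 without. Ifi30, a lysosomal thiol reductase that unfolds antigens, had 655 with CHIR99021 and 801 without. H2-DMa, a subunit of the peptide exchange factor, had 60.6 with CHIR99021 and 61.0 without. Of the 4 measured leukocyte markers 1 was lower (25%, against 18.4% of all genes). This was Lyz2, a gene of macrophages that alveolar epithelium also expresses, with 35.0 with CHIR99021 and 74.9 without, 2.14-fold lower. The macrophage receptor gene Csf1r had 54.4 with CHIR99021 and 48.4 without. The macrophage genes Adgre1 and Cd68 had 19.8 and 19.4 with CHIR99021 and 33.6 and 28.1 without, log2 ratios of -0.76 and -0.54.

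The 5 genes that match the rule only by the start of their symbol were all within 2-fold, with a median log2 ratio of 0.14. Irf2bp2, a corepressor that binds Irf2, had 1666 with CHIR99021 and 1308 without, although 2 of its other probe sets were 3.78-fold and 3.51-fold lower. Isg20l2, a nucleolar exonuclease of ribosome synthesis, had 1374 with CHIR99021 and 1008 without. Without these 5 the count of lower genes was 27 of 81 and the median log2 ratio was -0.72.

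Genes of the same pathways that fall outside the rule were listed by function, and 73 of 85 with a probe set were measured. Of these 13 were lower and 0 higher, 17.8% against 18.4% of all genes, with a median log2 ratio of -0.44. The lists differed in their counts: 5 of 17 other interferon-induced genes were lower, 2 of 12 nucleic acid sensing genes, 2 of 8 receptor kinases and inhibitors, 1 of 10 genes of Toll-like receptor signalling, 1 of 14 genes of class I and II regulation and assembly, 1 of 3 genes of interferon ligands and the lambda receptor, and 1 of 9 genes around tankyrases and other ADP-ribosyltransferases. Samd9l, an interferon-induced growth inhibitor, had 77.4 with CHIR99021 and 417 without, 5.39-fold lower. Cd14, the coreceptor of Tlr4, had 37.1 with CHIR99021 and 177 without, 4.77-fold lower.

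Among the sensors, Ddx58 (RIG-I), which detects viral RNA, had 62.0 with CHIR99021 and 243 without, 3.92-fold lower, and Sting1, the adaptor of DNA sensing, had 14.9 with CHIR99021 and 54.3 without, 3.66-fold lower. The Sting1 partner Cgas, named after its value was seen, had 76.1 with CHIR99021 and 57.3 without. Il10rb, a chain shared by the receptors of interferon lambda and interleukin 10, had 410.1 with CHIR99021 and 1333 without, 3.25-fold lower. Ptpn6, a phosphatase that restrains cytokine receptors, was 3.42-fold lower. The antiviral genes Zc3hav1 and Eif2ak2 were 2.60-fold and 2.40-fold lower, Xaf1, an apoptosis factor, was at least 2.70-fold lower, and Rfx5, a factor of MHC promoters, 2.40-fold lower. Of the ligands, Ifng was below the floor on both arrays, and Ifnb1 had 13.6 with CHIR99021, just above the floor, and 19.1 without, just below it. Tnks, a tankyrase that also targets the Wnt inhibitor axin and was named after its value was seen, had 326 with CHIR99021 and 729.9 without, 2.24-fold lower, and Tnks2 had 2729 with CHIR99021 and 3058 without.

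Where a member had several probe sets above both floors, they could be set against each other. There were 19 such genes, and for 11 all such probe sets had the same sign. The 5 lower genes among them (Ifngr2, Stat3, Tlr3, Ifi35 and Parp3) had the same sign throughout, and for 3 of them (Tlr3, Ifi35 and Parp3) every such probe set was at least 2-fold lower. Every Parp3 probe set is of the _x_at or _s_at kind, which may read more than 1 gene. Only 1 Ifi35 probe set is of another kind, with a log2 ratio of -1.27. Whether shared sequence adds to the agreement was not tested. Most genes lay below 0 on this scale, so a shared negative sign is easily reached. Where a gene of the array had several probe sets, their log2 ratios spread around the gene's mean with an SD of 0.557, a figure that holds no variation between cultures.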

How the data were processed

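RNA of 2 cultures was read on Affymetrix arrays, 1 per condition, after 3' in vitro transcription labelling of 100 ng, per the labels' protocols. The deposited intensity values are MAS5 signals, per the submitters' processing notes, with no version or scaling target. They are all positive, and their medians were 20.3 with CHIR99021 and 32.9 without. MAS5 subtracts mismatch signal, so dim values scatter widely. The number of arrays limits the precision.

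Probe sets were named from the platform annotation (34945 single-gene probe sets of 45101). All 120 members matched the RefSeq table of GRCm38.p6 by Entrez identifier, and 0 symbols changed. Each gene was read by the single-gene probe set whose mean log2 signal was highest. The floor was the 95th percentile of the receptor probe sets on each array. Ratios are with over without CHIR99021, and no test was run. The procedure was tested on simulated data, with changes larger than 2-fold planted in genes well above the floor. That test does not cover 2-fold calls near the floor. Python 3.11.15, numpy 2.4.6, pandas 2.3.3, statsmodels 0.14.6 and matplotlib 3.10.9 were used.

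The members, roles and gene lists were chosen with earlier results of these data known. Members past 2-fold, the members with the highest signals in each role, a fixed set of key genes, and the 10 largest changes among the other pathway genes are given with values. The 13 alternatives were median centring, quantile normalization, loess (span 0.4), scaling on 9 hybridization control probe sets, floors at the 90th and 99th percentile or none, an offset of 16, the median over probe sets, leaving out _x_at and _s_at probe sets, thresholds of 1.5-fold and 3-fold, and leaving out symbols matched by prefix only. Bands of signal were added after the data were seen.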

Additional observations from a re-analysis of the deposited data

How the results depend on the processing

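The scaling of the arrays, which the sources used here do not give, set the size of the counts. Of 86 measured members, 27 were at least 2-fold lower and 0 higher on the authors' scale. There were 10 lower and 3 higher after median centring, 10 and 4 after loess, 9 and 5 after quantile normalization, and 15 and 1 with the hybridization controls as the scale, where 13.7% of all genes were lower and 2.74% higher. The threshold moved them as well, to 47 lower and 3 higher at 1.5-fold (54.7% and 3.49%, where all genes had 38.7% and 5.05%) and to 8 lower at 3-fold (9.30% against 6.29%). Without a floor 32 were lower and 3 higher, against 20.6% and 3.71% of all genes, and these 3 (H2-T3, Oas1a and Oas3) were above the floor with CHIR99021 only by the probe sets that read them. The median log2 ratio of -0.68 became -0.12 after loess and -0.036 after quantile normalization, where the median of all genes was 0.04 and 0.12. Under the remaining alternatives it lay between -0.72 and -0.20. Those of the 27 lower genes still measured had log2 ratios below 0 under every alternative scaling, floor, offset and choice of probe set. They were picked in these same data for being at least 2-fold lower, and median centring moved ratios by 0.477 only. Under most of these alternatives the sign could therefore hardly change, and no robustness is read from it. Of the 27, 9 stayed past 2-fold under all 5 scalings, a count given without its share over all genes. With the floor at the 99th percentile 19 of 68 measured members were lower (27.9%, against 17.7% of all genes). The choice of probe set mattered too. With the median over probe sets 22 of 79 were lower (27.8% against 23.6%), and above both floors 24.1% against 22.4%. With the offset of 16, 18 of 86 were lower (20.9% against 13.9%), and above both floors 14.1% against 13.0%. No paired analysis was possible because each condition has 1 array. Signals close to the floor limit what can be said of 34 members that were not measured and of 22 measured on 1 array only.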
